A study of Mus musculus with 2 samples.

Results

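The genes described here are those of Wnt signaling: the Wnt ligands and the proteins that prepare them, the Frizzled and Lrp receptors, the R-spondins with their Lgr receptors, the secreted antagonists, and the intracellular members that carry or dampen the signal. They were chosen by name, as every gene on the array called Wnt, Fzd, Sfrp, Dkk or Rspo with a number. Added to these were *Lrp5*, *Lrp6*, *Axin2*, *Lef1*, *Tcf7*, *Wif1*, *Lgr4*, *Lgr5*, *Lgr6*, *Porcn*, *Wls*, *Znrf3*, *Rnf43*, *Nkd1*, *Nkd2* and *Ctnnb1*. This gave 57 of the 21248 genes with a probe, with no threshold on a measured value. Total RNA of the mouse incisor was labeled with the dye Cy3 and measured on SurePrint G3 Mouse GE arrays of Agilent, 1 for wild-type and 1 for *Sox21* KO tooth germ. The sample labels give the age as postnatal day 0, whereas the methods of the study give day 1. The wild-type mice of the study were C57BL/6J, and the strain of the KO mice, the portion of *Sox21* that the KO allele removes, the sex, and the number of animals behind each sample are not given in the sources used here. With a single array per genotype, no difference below has a replicate check, no p-value was computed, and the genotype and the particular sample cannot be told apart.

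Each probe, an oligonucleotide of 60 bases, gave a processed signal per array, from which the local background had been removed. Here it was divided by the 75th percentile of its array, which was 268 for wild-type and 276 for *Sox21* KO, and this quotient is called the normalized signal. The log2 ratio is *Sox21* KO minus wild-type, and the value after ± is the error that the scanner software assigns to the 2 signals, carried to the log2 scale, which covers the measurement of a spot and not the animals. A gene was called measured when the scanner marked its brightest probe as well above background on each of the arrays, which held for 13793 genes. *Sox21* itself had signals of 1362 in wild-type and 659 in *Sox21* KO at its brighter probe, a log2 ratio of -1.09 ± 0.20, and of 286 and 103 at the other, a log2 ratio of -1.51 ± 0.22. The direction fits the labels at both probes, and both stayed well above background on the KO array. The tooth identity of both samples was checked on marker lists. The enamel genes *Amelx*, *Ambn* and *Enam* and the dentin gene *Dspp* had normalized signals over 100 on each array, and *Barx1*, which marks the mesenchyme of molars, was not well above background on either.

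Wnt proteins are secreted ligands that carry a lipid, which the enzyme Porcn attaches and without which the carrier Wls cannot bring them to the cell surface. In the canonical branch they bind a Frizzled receptor together with Lrp5 or Lrp6, the breakdown of β-catenin (*Ctnnb1*) stops, and β-catenin activates target genes through the DNA-binding partners Lef1 and Tcf7. R-spondins and their Lgr receptors keep Frizzled proteins at the surface by holding back the ubiquitin ligases Znrf3 and Rnf43, whereas Dkk, Sfrp and Wif1 proteins block ligands or receptors outside the cell. The pathway is needed for the first steps of tooth and hair follicle formation, and Lgr5 marks stem cells of the hair follicle.

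Of the 57 genes, 51 were measured on both arrays, 6 were on neither, and 0 were well above background on 1 array only. The 6 were the ligands *Wnt2*, *Wnt2b*, *Wnt3*, *Wnt8a* and *Wnt9b* and the antagonist *Dkk4*, for which no ratio is given. At least 2-fold higher in *Sox21* KO were 2 of the 51 measured genes, *Lgr5* and *Wnt7b*, a share of 3.92%, against 0.740% of all measured genes. At least 2-fold lower were 2 others, *Wnt16* and *Wnt8b*, again 3.92%, against 0.667% of all measured genes. Taking a threshold of 1.5-fold in either direction added *Lgr6* and *Fzd6*, both lower. This made 6 genes or 11.8%, against 6.18% of all measured genes. With another background correction (normexp, described below), 0 were at least 2-fold higher and 1 lower, against 0.334% and 0.283% of all measured genes. *Wnt16*, *Wnt8b* and *Lgr5* were also picked out by the study from these same arrays, so their values here are not independent of that choice. For *Lgr5*, the paper also reports an increase by qPCR with technical replicates, and protein staining in *Sox21* KO incisors.

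**Figure D1:**
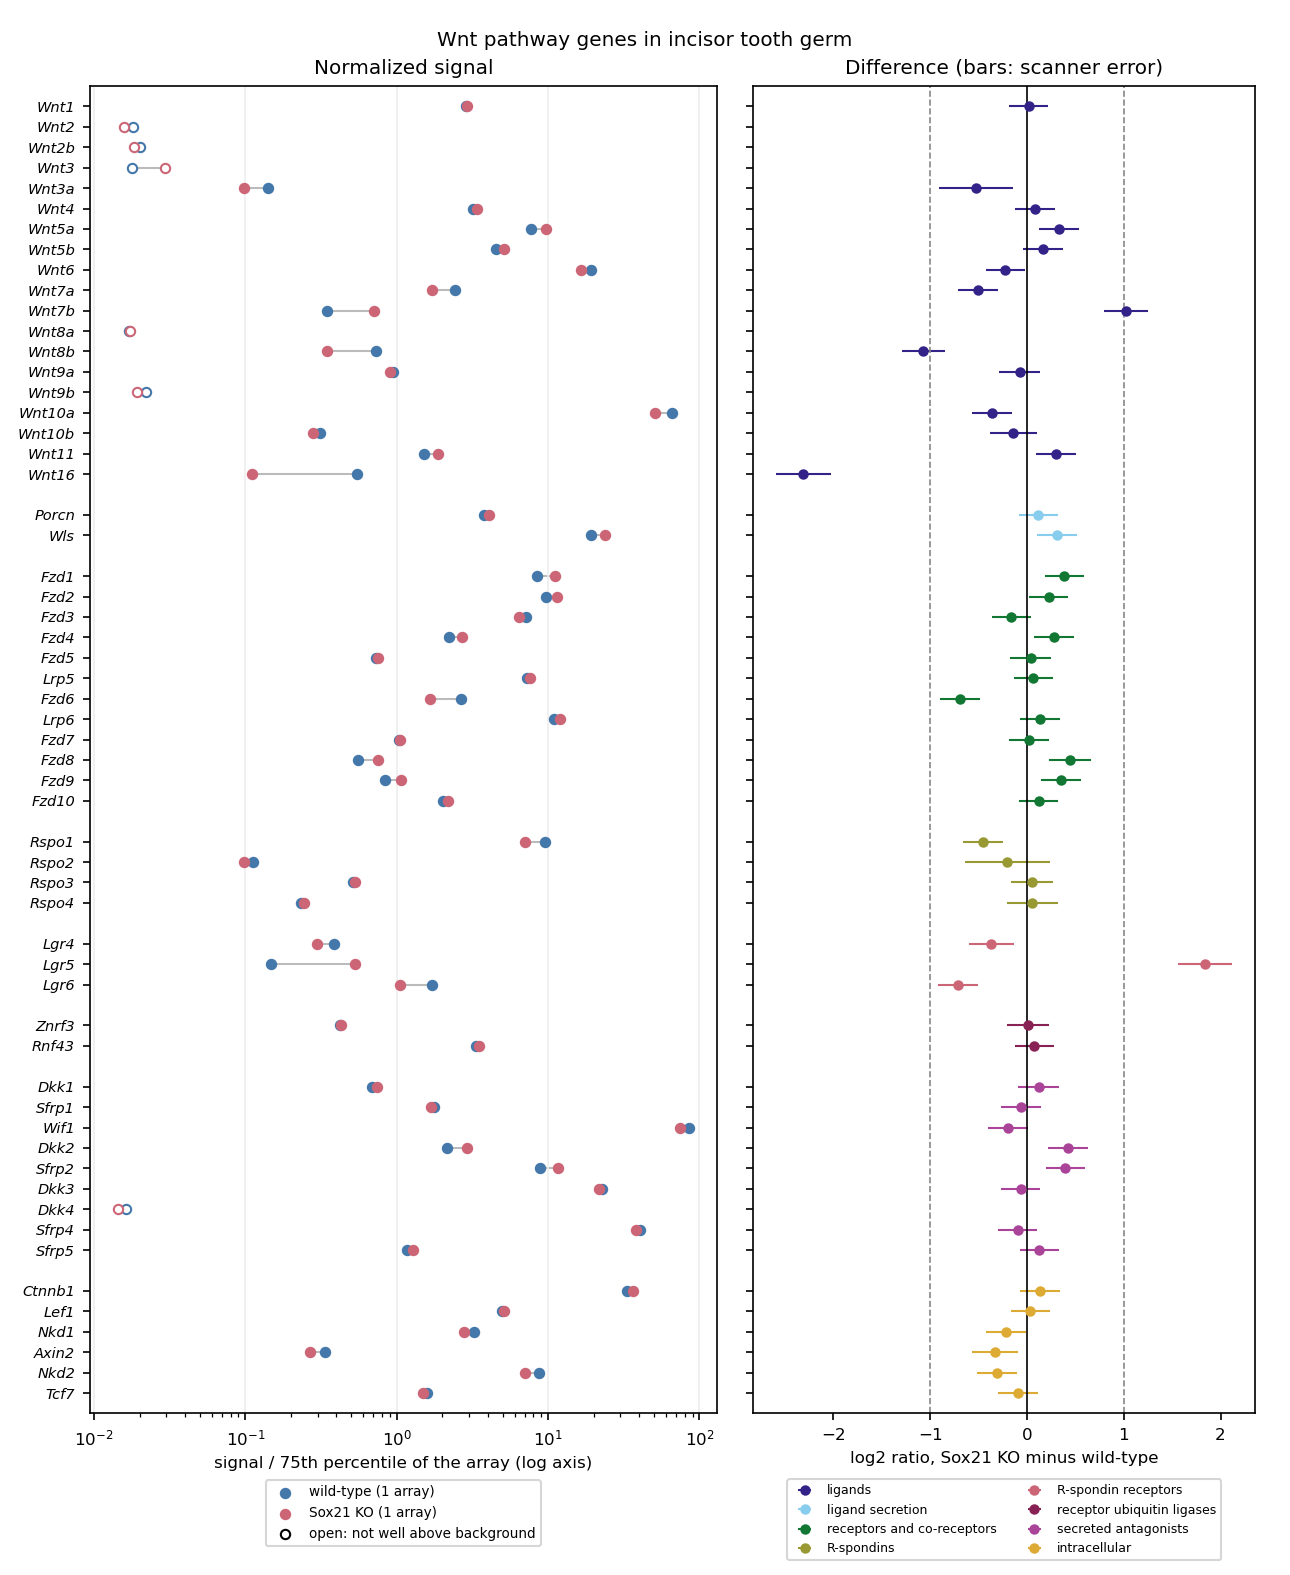
Left, normalized signal (in units of the array's 75th percentile, log axis) of each of the 57 genes on the wild-type array (blue) and the *Sox21* KO array (red), grouped by role, with open circles for genes not well above background. Levels of different probes are not comparable. Right, log2 ratio of the 51 measured genes, with bars for the scanner error and dashed lines at 2-fold, where *Lgr5* at 1.84 and *Wnt7b* at 1.02 lie beyond the right line and *Wnt16* at -2.31 and *Wnt8b* at -1.07 beyond the left.

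Most genes of the pathway differed little between the genotypes. Over the 51 genes the log2 ratio had a median of 0.04, with the middle of the distribution between -0.21 and 0.15, beside 0.01 for all measured genes. In size regardless of direction, the median log2 ratio was 0.20, beside 0.15 for all measured genes. Higher in *Sox21* KO were 29 of the 51 genes and lower were 22, and among all measured genes 52.4% were higher. Of the 51, 26 or 51.0% differed by less than their own scanner error, beside 66.1% of all measured genes. At least 2 such errors apart were 10, a share of 19.6% beside 10.8% over all measured genes. These 10 were the 6 genes already named together with *Wnt7a*, *Rspo1*, *Fzd8* and *Dkk2*.

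All 4 genes past 2-fold had a mean signal under the 75th percentile of the arrays, where ratios spread more widely. Of the 17 measured genes of the pathway in this dim range, 4 or 23.5% were at least 2-fold apart, against 2.45% of the 4820 measured genes in the same range. Of the 34 brighter ones, 0 were 2-fold apart, against 0.847% of the 8973 measured genes in that range. *Lgr6* and *Fzd6* were the 2 past 1.5-fold, or 5.88%, against 3.77% in that range.

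**Figure D2:**
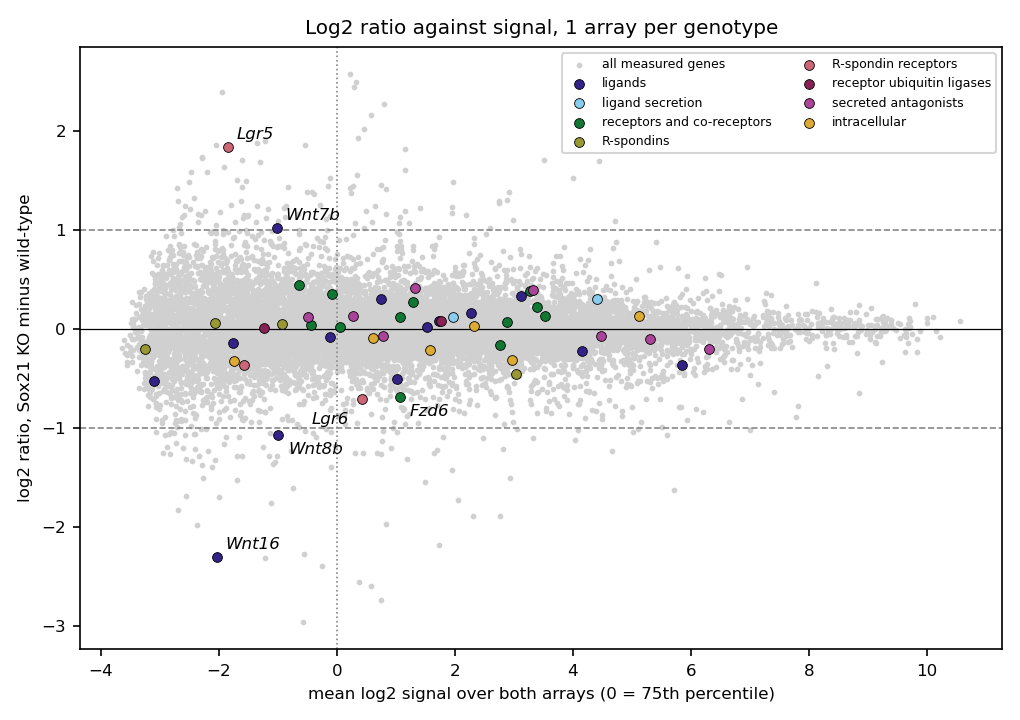
Log2 ratio (*Sox21* KO minus wild-type) against the mean log2 normalized signal of both arrays, with the 13793 measured genes in grey, the Wnt pathway genes in colour by role, a dotted line at the 75th percentile and dashed lines at 2-fold. *Lgr5*, *Wnt7b*, *Wnt8b* and *Wnt16* lie left of the dotted line, and *Lgr6* and *Fzd6* just right of it between 0 and the lower dashed line.

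Among the ligands, *Wnt16* differed most. *Wnt16*, a ligand known from joints, bone and hair follicles, had a signal of 146 in wild-type and 30.4 in *Sox21* KO at its brighter probe, or 0.545 and 0.110 after normalization. The log2 ratio was -2.31 ± 0.28. The other *Wnt16* probe had 49.7 in wild-type and 19.0 in *Sox21* KO, where it was not well above background, so its signal was at least 2.63-fold lower there. Both probes were thus lower in *Sox21* KO. Their sequences are shown because they read separate exons: they start at positions 840 and 947 of the transcript but 6.67 kb apart in the genome, at chr6:22241135-22241194 and chr6:22247804-22247863 (mm9, + strand). The capitals in the second mark the codon of the serine that receives the lipid from Porcn in Wnt proteins, found as the first codon of a serine, glycine, serine and cysteine stretch in an open frame, which 1 of the 22 Wnt probes held.
Wnt16 probe at transcript position 840: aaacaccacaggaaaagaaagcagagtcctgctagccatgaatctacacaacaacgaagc
Wnt16 probe at transcript position 947: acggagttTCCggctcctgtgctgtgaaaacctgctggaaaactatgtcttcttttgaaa

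*Wnt8b*, a ligand best known from the developing forebrain, had a signal of 194 in wild-type and 95.2 in *Sox21* KO, or 0.726 and 0.345 after normalization. The log2 ratio was -1.07 ± 0.22, past the 2-fold line by less than its scanner error, and -0.98 when scaled by the median of all spots. This value rests on the probe that starts at position 3227 of the transcript (chr19:44588615-44588674, + strand). The other *Wnt8b* probe, shown because it reads an earlier stretch of the same transcript (chr19:44585759-44585818, + strand), stayed at background on each array, with normalized signals of 0.0187 and 0.0380, and gives no ratio. The lower value of *Wnt8b* therefore rests on 1 of its 2 probes.
Wnt8b probe at transcript position 533: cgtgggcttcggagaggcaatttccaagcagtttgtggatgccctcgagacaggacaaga

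*Wnt7b*, which is expressed in oral and skin epithelium, went the other way. Its single probe (chr15:85366896-85366955, - strand) had a signal of 93.1 in wild-type and 194 in *Sox21* KO, or 0.348 and 0.706, a log2 ratio of 1.02 ± 0.23. *Wnt7b* thus lay past the 2-fold line by less than its scanner error, and had 0.99 when scaled over detected probes. Its closest relative *Wnt7a* had a normalized signal of 2.42 in wild-type and 1.71 in *Sox21* KO, a log2 ratio of -0.50 ± 0.20. The Wnt7 ligands therefore stood on opposite sides of equality, each by more than 2 scanner errors.

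Apart from *Wnt7b*, the measured ligands with textbook roles in tooth and hair were nearer to equal. *Wnt10a*, whose human counterpart is mutated in families with missing teeth, had a normalized signal of 65.8 in wild-type and 51.1 in *Sox21* KO, a log2 ratio of -0.36 ± 0.20. *Wnt6* had 19.3 and 16.6, a log2 ratio of -0.22 ± 0.20. These neighbours in the genome, whose probes lie 19.2 kb apart on chromosome 1, were both lower in *Sox21* KO. Of the other measured neighbour pairs, *Wnt3a* and *Wnt9a* were both lower too. *Wnt1* and *Wnt10b* had opposite signs, each within its scanner error. *Wnt10b*, an epithelial ligand of early tooth and hair placodes, had 0.309 and 0.280, a log2 ratio of -0.14 ± 0.24. *Wnt5a*, a mesenchymal ligand that signals mostly without β-catenin, had 7.74 and 9.74, a log2 ratio of 0.33 ± 0.20. *Wnt4* had 3.21 and 3.40, a log2 ratio of 0.08 ± 0.20, less than its scanner error. *Wnt3*, an epithelial ligand of early tooth germs, had signals of 4.78 and 8.18, not well above background.

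The remaining measured ligands were within 1.5-fold. *Wnt11* and *Wnt5b*, both tied to β-catenin-independent signaling, had log2 ratios of 0.30 ± 0.21 and 0.17 ± 0.20. *Wnt3a*, near the detection limit with signals of 37.6 and 26.9, had -0.53 ± 0.38. *Wnt9a*, another joint ligand, had -0.08 ± 0.21, and *Wnt1* had 0.02 ± 0.20. In all, 6 of 14 measured ligands were higher and 8 lower, with a median of -0.11, and 5 to 7 were higher when the scaling of the arrays was changed. Of the proteins that prepare ligands, the enzyme *Porcn* had a log2 ratio of 0.12 ± 0.20, with normalized signals of 3.78 and 4.10. The carrier *Wls* had 19.1 and 23.7, a log2 ratio of 0.31 ± 0.20.

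More of the receptors were higher than lower in *Sox21* KO, mostly by little. Of 12 Frizzled and Lrp genes, 10 were higher and 2 lower, where 52.4% of all measured genes were higher. Their median log2 ratio was 0.13, less than the scanner error of each of them. Under the other scalings 9 or 10 were higher, and with the mean over probes 9 were higher and 3 lower. *Fzd6*, a Frizzled known for the orientation of hairs and epithelial cells, was the exception past 1.5-fold. Its normalized signal was 2.65 in wild-type and 1.65 in *Sox21* KO, a log2 ratio of -0.69 ± 0.20. *Fzd8* had 0.552 and 0.752, a log2 ratio of 0.45 ± 0.21, and *Fzd1* had 8.46 and 11.1, a log2 ratio of 0.39 ± 0.20. *Fzd9*, *Fzd4* and *Fzd2* had log2 ratios of 0.35, 0.28 and 0.22. *Fzd10*, *Fzd5*, *Fzd7* and *Fzd3* lay between -0.16 and 0.12, with -0.79 ± 0.24 at the dimmer probe of *Fzd5*. The co-receptors *Lrp5* and *Lrp6* had 0.07 ± 0.20 and 0.13 ± 0.20, so neither differed by more than its scanner error.

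The R-spondin receptors went both ways. *Lgr5* had a signal of 39.5 in wild-type and 145 in *Sox21* KO at its single probe (chr10:114887403-114887462, - strand), or 0.147 and 0.528 after normalization. The log2 ratio was 1.84 ± 0.28, higher in *Sox21* KO. With the normexp background correction, described below, it was 0.94. *Lgr6*, which marks another stem cell population of the hair follicle, was lower in *Sox21* KO, with signals of 458 and 288, or 1.71 and 1.05, and a log2 ratio of -0.71 ± 0.21. The other *Lgr6* probe (chr1:136883782-136883841, - strand), shown because it reads an earlier stretch than the brighter one, had 38.4 in wild-type and 13.9 in *Sox21* KO, where it was not well above background. The signal at that probe was at least 2.03-fold lower in *Sox21* KO, the same direction as at the brighter probe. *Lgr4*, the most widely expressed of these receptors across tissues, had normalized signals of 0.384 and 0.297, a log2 ratio of -0.37 ± 0.23.
Lgr6 probe at transcript position 2711: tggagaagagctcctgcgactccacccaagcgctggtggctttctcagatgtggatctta

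Of the 4 R-spondins, 0 were 1.5-fold apart. *Rspo1* had signals of 2571 in wild-type and 1929 in *Sox21* KO, a log2 ratio of -0.46 ± 0.20, lower by more than 2 scanner errors. *Rspo2* was near the detection limit, with signals of 30.0 and 26.8 and a log2 ratio of -0.20 ± 0.44. *Rspo3* and *Rspo4* had 0.05 ± 0.22 and 0.06 ± 0.27. The ligases on which this branch acts were close to equal, with 0.01 ± 0.22 for *Znrf3* and 0.08 ± 0.20 for *Rnf43*.

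None of the 8 measured secreted antagonists (0 genes) was 1.5-fold apart. *Wif1*, which binds Wnt ligands, had normalized signals of 84.8 in wild-type and 74.0 in *Sox21* KO, a log2 ratio of -0.20 ± 0.20. The decoy receptor *Sfrp2* had 8.77 and 11.5, a log2 ratio of 0.40 ± 0.20, and *Sfrp5* had 1.16 and 1.27, a log2 ratio of 0.13 ± 0.21. *Dkk2*, which blocks Lrp co-receptors, had 2.16 and 2.90, a log2 ratio of 0.42 ± 0.20. *Dkk1*, *Dkk3*, *Sfrp1* and *Sfrp4* lay between -0.10 and 0.12. The antagonists split evenly, with 4 higher and 4 lower and a median of 0.03, and this split depended on the scaling, since 4 to 7 were higher under the others.

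The intracellular genes were likewise within 1.5-fold in all 6 cases. *Ctnnb1*, the signal carrier, had normalized signals of 33.3 in wild-type and 36.6 in *Sox21* KO, a log2 ratio of 0.13 ± 0.20, with 0.08 and 0.18 at its 2 spots. *Lef1*, whose loss stops tooth development early in mice, had 4.95 and 5.08, a log2 ratio of 0.04 ± 0.20. *Tcf7* had -0.09 ± 0.21. The feedback inhibitor *Axin2*, a common readout of canonical signaling, had 0.335 and 0.267, a log2 ratio of -0.33 ± 0.24, and -0.25 ± 0.36 at its other probe. *Nkd1* and *Nkd2*, which dampen Dishevelled, had -0.21 ± 0.20 and -0.31 ± 0.20. All 4 differences that point down here were under 2 scanner errors.

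Where a gene had 2 probes, they gave a measure of precision within the same RNA. Of 13 such genes, 9 had both probes measured on both arrays, and the sign of the log2 ratio was the same at both in 6. The probes differed by a median of 0.23 on the log2 scale and at most by 0.83. That largest gap belonged to *Fzd5*, with 0.04 ± 0.21 at the brighter probe and -0.79 ± 0.24 at the dimmer one, whose signals were 104 and 62.0. *Nkd1* and *Nkd2* also differed in sign between probes, with 0.01 and 0.11 at the dimmer ones. Repeat spots of the same probe had a median SD of 0.09 in the log2 ratio over 298 probes.

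**Figure D3:**
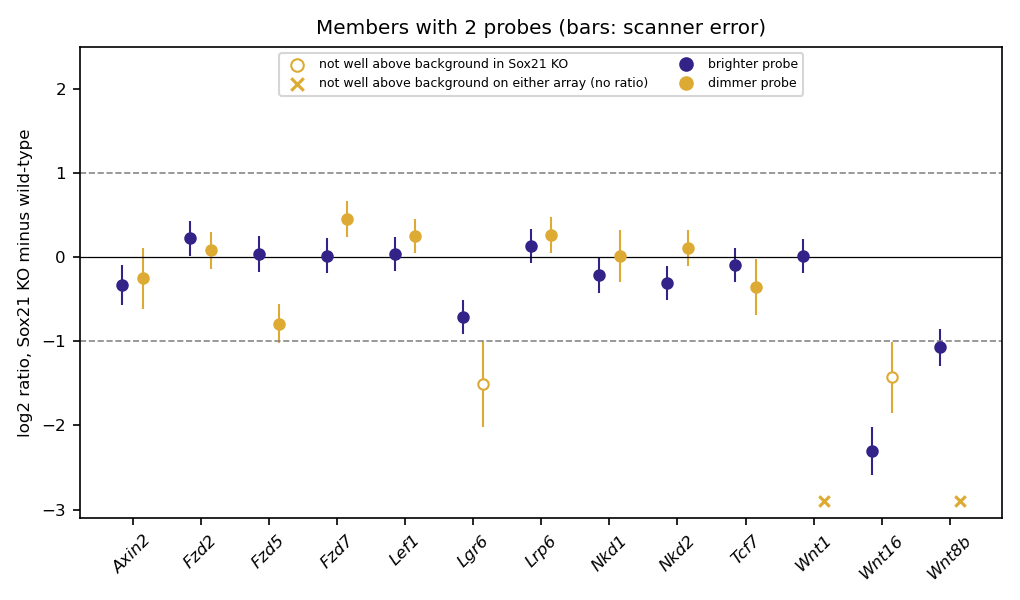
Log2 ratio (*Sox21* KO minus wild-type) at the brighter (dark blue) and dimmer (yellow) probe of the 13 genes with 2 probes, with bars for the scanner error, an open circle where the dimmer probe was not well above background in *Sox21* KO, and a cross, placed at the bottom without a value, where it was on neither array. Both probes of *Wnt16* and *Lgr6* lie below 0, those of *Fzd5* differ by 0.83, and *Wnt8b* and *Wnt1* have 1 usable probe each.

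The sign of a small difference depended on the scaling for 8 of the 51 genes, *Dkk3*, *Fzd7*, *Sfrp1*, *Sfrp4*, *Tcf7*, *Wnt1*, *Wnt9a* and *Znrf3*, and on the background correction alone for *Rspo4*. It held for the other 42, of which 25 were higher and 17 lower in *Sox21* KO under every scaling and background correction tried. The 6 genes past 1.5-fold were among the 42. For these, the background correction mattered more than the scaling. With the normexp correction, which adds an offset and damps dim probes, *Lgr5* had a log2 ratio of 0.94, *Wnt7b* of 0.65, *Wnt8b* of -0.73 and *Wnt16* of -1.26, so that *Wnt16* alone of all measured genes of the pathway was still 2-fold apart.

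**Figure D4:**
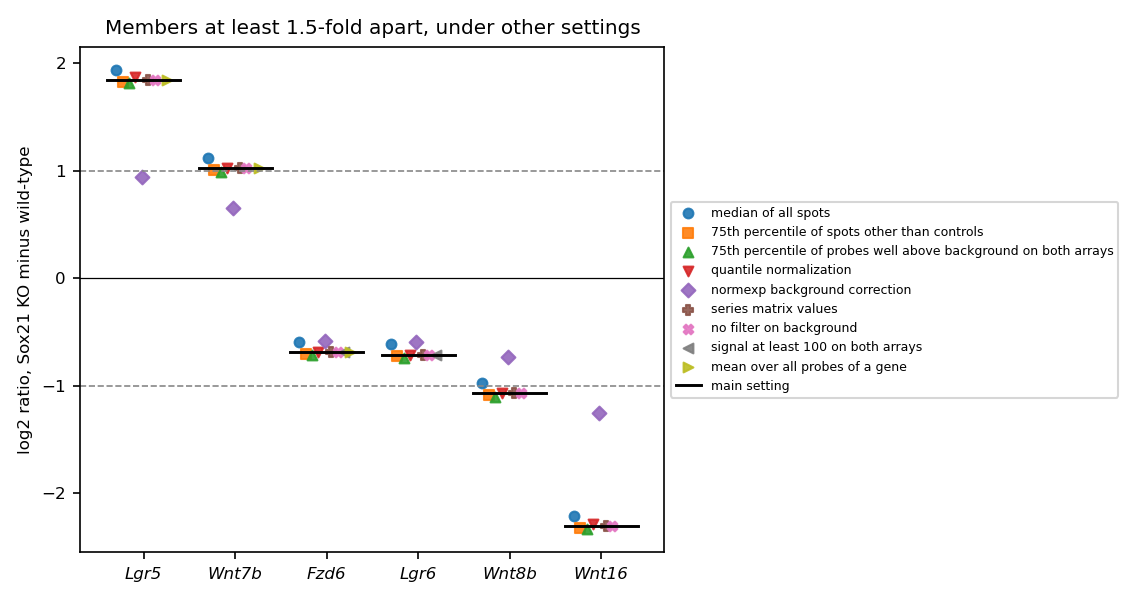
Log2 ratio (*Sox21* KO minus wild-type) of the 6 genes at least 1.5-fold apart, with a black line for the reported value and a marker for each other scaling, background correction, filter or probe choice, and dashed lines at 2-fold. Each gene stays on its side of 0, *Lgr5* lies at 0.94 under normexp (purple diamond), and the mean over probes is left out for *Lgr6*, *Wnt8b* and *Wnt16*, whose dimmer probe was not measured on both arrays.

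A wider list of 63 pathway genes not among those chosen above gave the setting for these values. It held kinases, Dishevelled and Groucho proteins, planar polarity genes, further antagonists and co-receptors. Of the 57 measured, 30 were higher and 27 lower in *Sox21* KO, with a median log2 ratio of 0.04. At least 2-fold higher were 0, against 0.740% of all measured genes, and lower was 1, against 0.667%. The lower one was *Ror1*, a receptor for Wnt5a, with signals of 203 and 80.9 and a log2 ratio of -1.37 ± 0.23. Its other probe had 43.6 and 53.0, a log2 ratio of 0.24 ± 0.29, so the *Ror1* probes disagreed in sign. The mean over both was -0.56 and the value with normexp -0.86, so that 0 genes of this list were at least 2-fold lower under either, as with a signal of at least 100 on both arrays. *Kremen2*, a cofactor of Dkk1 in the same list, had a signal of 116 in wild-type and was not well above background in *Sox21* KO. There it was at least 6.14-fold lower at its single probe (chr17:23878483-23878542, - strand). It is outside these counts, which took only genes measured on both arrays.

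Genes that canonical signaling raises in many tissues did not share a direction. Of 20 such targets, several of which are among the 57, 16 were measured, with 10 higher, 6 lower and a median of 0.05. At least 2-fold higher were 2 of the 16, or 12.5% against 0.740% of all measured genes, with 0 on the lower side. The list was chosen with earlier results of these data known, and *Lgr5* was picked out by the study from these arrays. The share is therefore not independent of the data. The higher ones were *Lgr5*, already described, and *Ascl2*, a transcription factor of stem cells in gut and hair follicle, with signals of 53.5 in wild-type and 149 in *Sox21* KO and a log2 ratio of 1.43 ± 0.26. With the normexp correction *Ascl2* had 0.81, and 0 of the targets were at least 2-fold higher. *Bmp4*, a signal of the dental mesenchyme, was lower, with 7520 and 4345 and a log2 ratio of -0.83 ± 0.20 at the probe used, whereas its other probe was at background in both genotypes.

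Marker genes of cell types that a dissected incisor could hold differed between the arrays beside these values, and in a whole tissue fewer cells of a type cannot be told apart from less RNA per cell. Of 11 joint and tendon genes, 8 were measured, 5 higher and 3 lower, with a median log2 ratio of 0.09. The joint marker *Gdf5* had -1.73 and *Angptl7* had -2.40. The normalized signals of the 11 summed to 16.4 in wild-type and 11.0 in *Sox21* KO, and those of the 9 without *Gdf5* and *Angptl7* to 6.90 and 8.32. *Prg4* and *Cilp* were not well above background in either sample, and *Gdf6* was in *Sox21* KO only. All 4 measured of 5 cartilage genes were higher, with a median of 0.55 and sums of 13.7 and 21.6, as were all 4 measured of 5 bone genes, with a median of 0.34 and sums of 100.4 and 150.4, while *Matn1* and *Sost* were on neither array. Of 7 skeletal muscle genes, 6 were measured, 1 higher and 5 lower, with a median of -0.47 and sums of 65.5 and 47.6. Of 6 genes of cornified skin, 4 were measured, all 4 higher, with a median of 0.75 and sums of 5.98 and 11.8, *Flg* was well above background in *Sox21* KO only, and *Ivl* on neither. Of 8 hair follicle genes, 4 were measured, 3 higher and 1 lower, with a median of 0.62. The hair keratin *Krt32* had 2.40 and *Foxn1* had 1.13, whereas the inner root sheath keratin *Krt27* had -0.60 and *Krt71*, of the same sheath, was well above background in wild-type only and at least 2.34-fold lower in *Sox21* KO. The sum of the 8, most of it *Msx2*, was 24.2 in both genotypes. The 7 ameloblast genes were all measured, 2 higher and 5 lower, with a median of -0.62. The medians were 0.15 for 6 dental epithelium genes, 0.18 for the 6 measured of 7 genes of dental mesenchyme and odontoblasts, and -0.12, 0.07 and -0.23 for the measured genes of dermal papilla, endothelium and blood. Of the dermal papilla list, *Sox2* was well above background in *Sox21* KO only, with signals of 22.6 in wild-type and 56.4 in *Sox21* KO. Its log2 ratio was 1.28 ± 0.38. The markers *Krt32*, *Krt1*, *Krt10*, *Sox2*, *Gdf5*, *Amtn* and *Klk4* were also picked out by the study from these same arrays. The values of their lists are not independent of that choice. A sum adds probes of unlike brightness and is led by the brightest. The part of these markers in the values of *Wnt16*, *Wnt7b*, *Lgr5* and *Lgr6* was not tested.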

How the data were processed

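Total RNA of 1 wild-type and 1 *Sox21* KO incisor sample was labeled with Cy3, hybridized and scanned. The authors deposited, per spot, a processed signal intensity that Agilent Feature Extraction 10.7.3.1 (per the submitters' processing notes) had corrected for background, with other marks of spot quality, and a table of linear ratios, which are the same signals divided by 1 number per array (relative difference up to 1.37e-06), near the 75th percentile of all spots. The paper names GeneSpring, a percentile shift and a filter on low signals.

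Here log2 of the processed signal over the 75th percentile of all spots was averaged over the spots of a probe, control spots and outlier marks were left out, and a gene took its brightest probe. Gene names are those in the files, checked against RefSeq symbols, and coordinates are those of mm9 in the files. A probe well above background on 1 array only was given a bound. This was its brighter normalized signal over the larger of the dimmer one and the lowest value well above background. The scanner error did not enter this bound. No test was run. Lists are described by counts and medians beside all measured genes.

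Genes named were those at least 1.5-fold apart, the brightest of each role, those of the paper or with known roles in tooth and hair, and *Sox21*. All other genes of the 57 are given as well, and *Kremen2* and the individual markers were named after their values were seen. The members and lists were chosen with earlier results of these data known. Alternatives were the median, the 75th percentile without control spots or over detected probes, quantile normalization, normexp (offset 50, limma 3.58.1 in R 4.3.3), the deposited ratios, no filter, a signal of at least 100, the mean over probes and a 1.5-fold threshold. The steps were tested on simulated data. Python 3.11.15, numpy 2.4.6 and pandas 2.3.3 were used. The number of arrays limits the precision.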

Additional observations from a re-analysis of the deposited data

How the results depend on the processing

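Under the alternatives, the count of Wnt pathway genes at least 2-fold higher went from 2 to 1 with the 75th percentile of detected probes, and to 0 with normexp and with a signal of at least 100 on both arrays. The count at least 2-fold lower went from 2 to 1 with the median of all spots and with normexp, to 0 with a signal of at least 100, and to 4 at a 1.5-fold threshold. The minimum signal leaves out all 4 genes past 2-fold by construction, since each has a signal under 100 on an array. The median of all spots moved the median of all measured genes from 0.01 to 0.11, and with it that of the Wnt pathway genes to 0.13, of the other pathway genes to 0.14 and of the canonical targets to 0.14. The mean over both probes gave *Sox21* a log2 ratio of -1.30. With normexp, the shares of all measured genes past 2-fold were 0.334% higher and 0.283% lower. Of 100 values of 20 named Wnt pathway genes under the 4 other scalings and normexp, 96 moved by less than the scanner error and 0 reversed. The 4 that moved further were those of *Lgr5*, *Wnt7b*, *Wnt8b* and *Wnt16* with normexp, given with the report. The filters cannot move the value of a single gene, and the mean over probes takes in, for *Lgr6*, *Wnt16* and *Wnt8b*, a dimmer probe not measured on both arrays and is no estimate for them. No paired analysis was possible because each genotype has 1 array. Dim signals limit *Wnt16*, *Wnt8b*, *Wnt7b* and *Lgr5*, whose lower signals of 30.4 to 95.2 compare with 21.3 and 19.5 as the lowest marked well above background on the wild-type and KO arrays.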
